A study of Mus musculus with 7 samples.

Results

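Rab GTPases are small membrane-bound switches, each of which marks a compartment or a step of vesicle traffic. Mouse Rab genes were taken as every gene whose single array symbol is Rab followed by a number and, where present, a letter and a digit, with no condition on its level. Of several probe sets of 1 gene, the one with the highest mean over the 7 arrays was used. This gave 58 Rab genes among 22180 genes with a single symbol on the Affymetrix Mouse Gene 2.0 ST array.

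The arrays held RNA of selected spleen monocytes with wild-type EPCR (endothelial protein C receptor) taken from 2 mice. Mouse 1 gave 1 array each for unstimulated cells, the monoclonal antiphospholipid antibody HL7G at 400 ng/ml, the TLR7 agonist R848 at 2 µg/ml, the TLR9 agonist CpG B at 2.5 µM and the double-stranded RNA mimic poly I:C at 1 µg/ml. Mouse 2 gave 1 unstimulated array and 1 array with HL7G at 400 ng/ml. Stimulation lasted 3 h. All groups carry the same genotype as far as the labels give it. Strain, age and sex of the mice, the selection method and the time in culture of the unstimulated cells are details the labels do not give. An IgG control that the protocol names is not among the 7 arrays, so HL7G has no control antibody here.

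A Rab protein is active when it holds GTP and inactive when it holds GDP. Guanine nucleotide exchange factors (GEFs) load GTP and so switch a Rab on, GTPase-activating proteins (GAPs) speed GTP hydrolysis and switch it off, and GDP dissociation inhibitors (GDIs) draw the lipid-modified, inactive protein off the membrane. Active Rabs recruit effectors and tethering complexes that move, dock and fuse vesicles. In monocytes and macrophages, such traffic carries receptors and antigen inward through endosomes and phagosomes, and newly made cytokines and surface proteins outward.

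Expression levels are RMA log2 values, so a difference of 1 is a 2-fold change, and the median level over all probe sets lay between 4.40 and 4.54 on every array. Levels of housekeeping genes differed between arrays. Actb was at 5.02 and 6.81 on the unstimulated arrays of mouse 1 and mouse 2 and at 7.77 to 9.34 on the stimulated arrays, whereas Gapdh was at 9.13 and 8.75 against 7.73 to 8.32. HL7G minus unstimulated was 2.91 for Actb (limma adjusted p = 0.0210) and -1.03 for Gapdh (limma adjusted p = 0.0317). It was 3.27 for B2m (limma adjusted p = 0.0187) and 2.55 for Eef1a1, which was not called (limma adjusted p = 0.0679). The monocyte genes Ly6c2, at 3.74 to 4.38, and Ccr2, at 3.76 to 4.09, lay near or below the array medians on all 7 arrays. Other genes of that list, Cx3cr1, Spn (5.59 to 6.20), Cd68 (5.41 to 6.20), Nr4a1, Csf1r and Itgam, lay above the medians on every array. Lyz2, Cd14, Fcgr1 and Ms4a6c lay above the median on some arrays and below it on others. Over all genes tested, 16.3% were called higher with HL7G, and no cell type list was tested as a set against that share. Of 12 listed monocyte genes, 8 were tested and 1, Lyz2, rose with HL7G. B-cell genes moved with HL7G too: 7 of 8 tested rose, and their summed linear level was 261.4 and 311.4 on the unstimulated arrays, 744.5 and 714.6 with HL7G and 433.1 to 562.1 with the agonists. Of T-cell genes, 4 of 7 tested rose, with summed levels of 244.1 and 280.8 unstimulated, 590.1 and 541 with HL7G and 337.7 to 362.8 with the agonists. Hmox1 of the red pulp macrophage list and Pecam1 of the endothelial list rose as well, and no tested gene of the NK cell, neutrophil, platelet, erythroid or dendritic cell lists was called. Of erythroid genes 1 was on the array, and none of the 4 basophil and mast cell genes reached the level for testing. The neutrophil gene S100a8, also below that level, differed by 0.96 and was called with no filter on level (limma adjusted p = 0.0344). The part of these other cells in the Rab results was not tested. In bulk RNA, a change in the number of cells of a type and a change in RNA per cell cannot be told apart.

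With HL7G, 7 Rab genes rose and none fell. The largest differences were those of Rab10, which carries vesicles to the plasma membrane, Rab21, a Rab of early endosomes, and Rab8b, another Rab of outward traffic. They rose 8.20-fold, 5.20-fold and 5.0-fold. Rab1a, Rab8a, Rab7 and Rab6b rose by 2.80-fold, 2.68-fold, 2.39-fold and 2.10-fold. The test was limma's moderated test over all genes whose level reached 5 on 1 or more arrays, with Benjamini-Hochberg adjustment and a call at an adjusted p under 0.05. Of the 58 Rabs, 34 were tested, so 20.6% of tested Rabs were called higher against 16.3% of the 11119 genes tested, and 0 were called lower against 1.89%. The Rabs' share thus lay near the background share. Of the 34 tested Rabs, 12 reached the level of 5 on stimulated arrays only, among them every called Rab except Rab8a, so the tested Rabs are not a neutral sample of the family. With no filter on level, the same 7 Rabs were called, against 8.32% of all 22180 genes higher and 1.51% lower. The errors rest on 2 animals. Without the unstimulated array of mouse 1, all 7 calls were lost, with limma adjusted p of 0.0880 to 0.169, while the 7 differences stayed between 0.97 and 2.80 on the log2 scale. Only 2 genes in all, 0.018%, were called higher in that fit. The number of Rabs called higher was 4 without the unstimulated array of mouse 2, 5 without the HL7G array of mouse 1 and 11 without that of mouse 2, where 7.35%, 11% and 25% of all genes tested were called higher.

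Of the 58 Rabs, 47 had a promoter window in RefSeq (assembly GRCm38.p6), each running from 250 bases before to 50 bases after an annotated start. The windows of the 3 most changed Rabs are shown because these genes moved together, and that of Rab5a because it is the Rab5 gene with the largest HL7G difference. Each is written 5′ to 3′ on the gene's strand, with matches to the searched motifs in capitals.
Rab10 promoter: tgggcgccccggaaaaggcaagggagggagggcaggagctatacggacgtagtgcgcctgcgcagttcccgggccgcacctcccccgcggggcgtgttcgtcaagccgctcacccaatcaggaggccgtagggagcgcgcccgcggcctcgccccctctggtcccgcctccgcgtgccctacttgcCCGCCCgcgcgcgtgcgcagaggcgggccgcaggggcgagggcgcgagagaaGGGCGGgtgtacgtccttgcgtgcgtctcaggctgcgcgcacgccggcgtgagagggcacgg
Rab21 promoter: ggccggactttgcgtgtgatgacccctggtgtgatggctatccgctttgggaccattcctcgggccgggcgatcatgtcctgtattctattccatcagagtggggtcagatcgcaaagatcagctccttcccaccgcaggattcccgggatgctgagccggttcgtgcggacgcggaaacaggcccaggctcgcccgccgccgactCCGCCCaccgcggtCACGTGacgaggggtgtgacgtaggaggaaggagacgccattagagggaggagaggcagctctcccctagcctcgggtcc
Rab8b promoter: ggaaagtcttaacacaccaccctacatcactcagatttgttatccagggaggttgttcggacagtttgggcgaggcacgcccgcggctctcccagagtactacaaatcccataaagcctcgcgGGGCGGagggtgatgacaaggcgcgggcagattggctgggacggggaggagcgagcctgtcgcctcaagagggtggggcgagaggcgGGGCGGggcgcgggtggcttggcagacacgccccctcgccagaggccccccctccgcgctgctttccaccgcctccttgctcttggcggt
Rab5a promoter: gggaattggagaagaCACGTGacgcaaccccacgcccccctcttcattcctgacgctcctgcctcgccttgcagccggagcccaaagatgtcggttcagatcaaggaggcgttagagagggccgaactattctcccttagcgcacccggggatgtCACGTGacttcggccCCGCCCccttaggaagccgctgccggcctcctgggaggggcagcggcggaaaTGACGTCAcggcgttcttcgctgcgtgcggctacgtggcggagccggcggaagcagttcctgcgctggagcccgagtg
Rab10 lies at chr12:3309920-3310219 on the minus strand, Rab21 at chr10:115315542-115315841 on the minus strand, Rab8b at chr9:66919656-66919955 on the minus strand and Rab5a at chr17:53478984-53479283 on the plus strand. In Rab10 and Rab8b the capitals mark GC boxes. In Rab21 they mark a GC box followed by an E-box that starts 30 bases before the annotated start, and in Rab5a, from 5′ to 3′, an E-box, another E-box, a GC box and a CRE.

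Of the motifs searched on both strands, the GC box (GGGCGG) was in 67.8% of the 59 Rab windows and in 35.66% of all 32851 windows. The windows of the Rabs were richer in G and C, with a median of 61.0% against 52.7%. The other motifs were an E-box (CACGTG, 10.17% of Rab windows against 7.15% of all), an ETS motif (CCGGAAG, 8.47% against 8.86%), an IRF core (AANNGAAA, 8.47% against 23.92%), AP-1 (TGANTCA, 5.08% against 7.81%), NF-kB (5.08% against 8.46%) and CRE (TGACGTCA, 3.39% against 1.79%). The 7 called Rabs had 8 windows. A GC box was in 7 of the 8, an E-box in 1 and an ETS motif in 1, and the letters of the IRF core, NF-kB, AP-1 and CRE motifs were in none of them. These matches describe letters in a window and not bound sites.

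**Figure D1:**
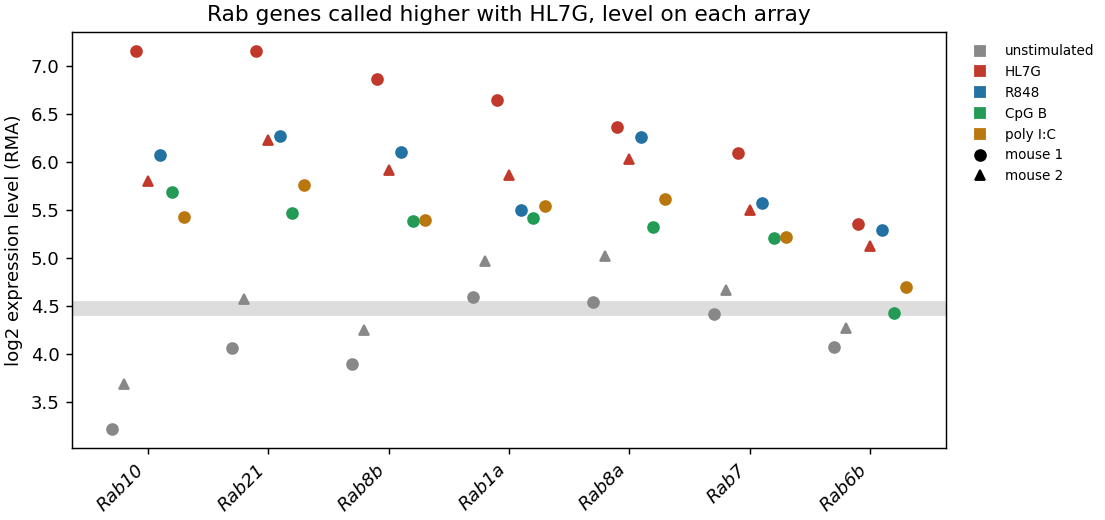
RMA log2 level (vertical axis) of the 7 Rab genes called higher with HL7G, 1 symbol per array, coloured by condition, with circles for mouse 1 and triangles for mouse 2; the grey band spans the array medians of 4.40 to 4.54. All 5 stimulated arrays lie above both unstimulated arrays for each gene, and Rab10 spans 3.21 to 7.16.

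Among the 13 Rabs of the ER and Golgi, 7 were tested and 2 rose, where 16.3% of all genes tested rose. No role group was tested as a set against that share. Rab1a, which acts in transport from the ER to the Golgi, was at 4.59 and 4.96 on the unstimulated arrays of mouse 1 and mouse 2. It was at 6.65 and 5.87 with HL7G, and at 5.50 with R848, 5.42 with CpG B and 5.54 with poly I:C. All stimulated arrays lay above both unstimulated ones, and the HL7G arrays were the highest. HL7G minus unstimulated was 1.49 ± 0.31 (SE, n = 2 against 2; limma adjusted p = 0.0227). Without the unstimulated array of mouse 2 it was 1.67, with a limma adjusted p of 0.0571.

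Rab6b, a Golgi Rab best known from neurons, was at 4.07 and 4.27 unstimulated, at 5.35 and 5.12 with HL7G, and at 5.29 with R848, 4.42 with CpG B and 4.69 with poly I:C. The HL7G and R848 arrays were clearly above the other 4. The difference was 1.07 ± 0.22 (limma adjusted p = 0.0224), and it rests on 1 of 2 probe sets. The other lay at 4.75 and 4.57 unstimulated, above the probe set used, and at 4.47 and 4.50 with HL7G. The choice by the mean over all arrays thus depended on the stimulated arrays. The mean of both probe sets gave 0.45 and no call (limma adjusted p = 0.167). Its call was also lost without the unstimulated array of mouse 2 (adjusted p = 0.0780, limma) and without the HL7G array of mouse 1 (adjusted p = 0.0505, limma). Rab6a, the widely expressed Golgi paralogue, was at 5.24 and 4.41 unstimulated and at 5.05 and 4.85 with HL7G, so its groups overlapped, with a difference of 0.12 ± 0.31 (limma adjusted p = 0.790).

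Rab2a, which works between the ER and the Golgi, was at 4.93 and 5.14 unstimulated and at 6.35 and 5.61 with HL7G. It was at 5.28, 5.64 and 5.25 with R848, CpG B and poly I:C, so that the HL7G array of mouse 1 stood highest. The HL7G and unstimulated groups did not overlap, yet the difference of 0.95 ± 0.29 missed the threshold (limma adjusted p = 0.0655), and it was 1.42 in mouse 1 and 0.47 in mouse 2. Rab1b, the close relative of Rab1a, stayed below a level of 5 on every array and was not tested, with 4.03 and 4.43 unstimulated against 4.93 and 4.29 with HL7G. Over all 13 ER and Golgi Rabs the median difference was 0.20, from -0.36 for Rab36 to 1.49 for Rab1a.

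Among the 13 Rabs of early and recycling endosomes, 11 were tested and 1 rose, where 16.3% of all genes tested rose. Rab21, which takes part in the uptake of integrins and other cargo at early endosomes, was at 4.06 and 4.57 unstimulated and at 7.16 and 6.23 with HL7G. It was at 6.27 with R848, 5.47 with CpG B and 5.76 with poly I:C. Every stimulated array lay well above both unstimulated ones. HL7G minus unstimulated was 2.38 ± 0.35 (limma adjusted p = 0.0123), with 3.10 in mouse 1 and 1.66 in mouse 2.

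The 3 Rab5 genes encode the Rabs that drive fusion of early endosomes, and none of them was called. Rab5a was at 4.57 and 4.34 unstimulated, at 6.22 and 4.63 with HL7G, and at 4.87, 4.73 and 4.69 with R848, CpG B and poly I:C. Only the HL7G array of mouse 1 stood well above the rest. The difference was 0.96 ± 0.48 (limma adjusted p = 0.190), made up of 1.64 in mouse 1 and 0.29 in mouse 2. Without the HL7G array of mouse 2 it was 1.76 with a limma adjusted p of 0.00246, and without that of mouse 1 it was 0.17. Rab5b was at 4.19 and 3.72 unstimulated, at 5.22 and 4.57 with HL7G, and at 4.86, 4.21 and 4.66 with the 3 agonists. Both mice moved alike here, by 1.03 and 0.85. The difference of 0.94 ± 0.30 had a limma adjusted p of 0.0700, and of 0.0498 with the mouse as a block. Rab5c was at 4.32 and 4.28 unstimulated, at 5.62 and 4.73 with HL7G, and at 5.01, 4.20 and 4.70 with the agonists. Its difference was 0.88 ± 0.32 (limma adjusted p = 0.0950).

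Rab11b, of the recycling endosome, was at 5.45 and 5.09 unstimulated and at 5.75 and 5.68 with HL7G, a difference of 0.44 ± 0.23 (limma adjusted p = 0.205). Rab35, of fast recycling to the surface, was at 5.18 and 5.33 unstimulated and at 5.79 and 5.53 with HL7G, a difference of 0.40 ± 0.22 (limma adjusted p = 0.231). On these probe sets the groups did not overlap in either gene, and neither was called. Of the other Rab11b probe sets, 1 overlapped, at 4.06 on both unstimulated arrays and at 3.97 and 4.25 with HL7G. The mean over the 3 Rab11b probe sets differed by 0.18 (limma adjusted p = 0.542). Rab11b also fell short of a call after loess and quantile normalization, at 0.23 and 0.22, and without the unstimulated array of mouse 2, at 0.26. Rab31, of traffic between the trans-Golgi and endosomes, was at 5.27 on both unstimulated arrays and at 5.46 and 5.13 with HL7G, so that 1 HL7G array lay on each side (0.02 ± 0.23; limma adjusted p = 0.941). Rab11a, at 4.43 to 4.80, and Rab14, at 3.67 to 4.37, stayed below a level of 5 on all arrays and were not tested, and they differed by 0.21 and 0.24.

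Among the 12 Rabs of late endosomes, phagosomes and lysosome-related organelles, 8 were tested and 1 rose, where 16.3% of all genes tested rose. Rab7, which directs fusion of late endosomes, phagosomes and autophagosomes with lysosomes, was at 4.41 and 4.66 unstimulated and at 6.09 and 5.50 with HL7G. It was at 5.57 with R848, 5.20 with CpG B and 5.22 with poly I:C. No stimulated array overlapped with the unstimulated ones. The difference was 1.26 ± 0.27 (limma adjusted p = 0.0238), with 1.68 in mouse 1 and 0.83 in mouse 2. The limma adjusted p was 0.0723 without the unstimulated array of mouse 2 and 0.0520 without the HL7G array of mouse 1.

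Rab38, of melanosomes and other lysosome-related organelles, had the lowest difference of all 58 Rabs. It was at 5.0 and 5.14 unstimulated, at 4.0 and 4.58 with HL7G, and at 5.01 with R848, 4.33 with CpG B and 4.85 with poly I:C. Both HL7G arrays lay below both unstimulated arrays, and the R848 array lay between those. The difference of -0.78 ± 0.26 was not called (limma adjusted p = 0.0807), and it was called without the HL7G array of mouse 2 (limma adjusted p = 0.0156) and after quantile normalization of the genes tested (limma adjusted p = 0.0399). Its relative Rab32 was at 5.47 and 5.07 unstimulated and at 5.13 and 5.60 with HL7G, with the mice in opposite directions (0.09 ± 0.26; limma adjusted p = 0.812). Rab20, a Rab of maturing phagosomes, was at 5.33 and 5.62 unstimulated and at 5.52 and 5.56 with HL7G, inside the unstimulated range (0.06 ± 0.22; limma adjusted p = 0.850). Its other probe set had both HL7G arrays, at 4.79 and 4.86, below both unstimulated arrays, at 5.45 and 5.06, and the mean over both probe sets differed by -0.18 (limma adjusted p = 0.531). Rab9, of return traffic from late endosomes to the Golgi, was at 3.49 and 3.41 unstimulated and at 4.14 and 3.70 with HL7G. Its levels with R848, CpG B and poly I:C were 4.19, 4.15 and 4.53, so that poly I:C gave the highest array. Rab9 never reached a level of 5 and was not tested.

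Among the 14 Rabs of exocytosis and regulated secretion, 6 were tested and 3 rose, where 16.3% of all genes tested rose. Of those 3, Rab10 and Rab8b reached a level of 5 on stimulated arrays only, and the count was not tested against that share. Rab10 was at 3.21 and 3.68 unstimulated, at 7.16 and 5.80 with HL7G, and at 6.07 with R848, 5.69 with CpG B and 5.42 with poly I:C. On the unstimulated arrays its probe set stood at percentiles 14.3 and 22.9 of all probe sets, near the dim end, and with HL7G at percentiles 95.9 and 86.9. The difference was 3.04 ± 0.44 (limma adjusted p = 0.0120), with 3.95 in mouse 1 and 2.13 in mouse 2. Rab8b was at 3.89 and 4.24 unstimulated, at 6.86 and 5.92 with HL7G, and at 6.10, 5.38 and 5.39 with R848, CpG B and poly I:C. Again the stimulated arrays lay well apart from the unstimulated pair. The difference was 2.32 ± 0.34 (limma adjusted p = 0.0123), with 2.97 in mouse 1 and 1.67 in mouse 2.

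Rab8a, which with Rab8b carries cargo from the Golgi and recycling endosomes to the cell surface, was at 4.54 and 5.02 unstimulated and at 6.37 and 6.04 with HL7G. The R848 array reached 6.26, while CpG B and poly I:C were at 5.32 and 5.61. The difference was 1.42 ± 0.26 (limma adjusted p = 0.0170). Rab8a too has a further probe set that did not follow, at 4.66 and 4.41 unstimulated against 4.68 and 4.63 with HL7G. The mean over both probe sets gave 0.77 and a limma adjusted p of 0.0483.

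Rab27a, which docks lysosome-related granules at the plasma membrane, was at 4.94 and 5.05 unstimulated, at 5.48 on both HL7G arrays, and at 5.55, 5.66 and 5.16 with R848, CpG B and poly I:C. Every stimulated array was above both unstimulated ones, by a small margin for poly I:C, and the HL7G difference was 0.48 ± 0.21 (limma adjusted p = 0.145). Rab3c, a Rab of synaptic-type exocytosis, was at 7.06 and 6.75 unstimulated and at 5.86 and 6.47 with HL7G. It was at 6.64 with R848, 6.06 with CpG B and 6.28 with poly I:C, below both unstimulated arrays in every case. The difference was -0.74 ± 0.28 (limma adjusted p = 0.103), and it was called lower without the HL7G array of mouse 2 and after loess or quantile normalization of the genes tested. Rab44, an atypical large Rab, was at 5.70 and 5.56 unstimulated and at 4.68 and 5.28 with HL7G (-0.65 ± 0.26; limma adjusted p = 0.128), and it was called lower without the HL7G array of mouse 2 and after quantile normalization. Rab15 and Rab3a had differences of -0.72 and -0.58 below a level of 5 and were not tested. The median over all 14 exocytic Rabs was -0.12.

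None of the 6 Rabs grouped as ciliary or less studied was called, and 2 of them were tested. The largest differences were those of Rab23, known from ciliary signalling, and Rab28, neither of which reached a level of 5. Rab23 was at 3.99 and 4.54 unstimulated, at 4.38 and 4.74 with HL7G, and at 4.45, 4.37 and 4.50 with R848, CpG B and poly I:C. Rab28 was at 4.25 and 4.48 unstimulated, at 4.71 and 4.61 with HL7G, and at 4.59, 4.44 and 4.35 with the agonists. Rab23 overlapped between groups and Rab28 did not, and the differences were 0.30 and 0.29.

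**Figure D2:**
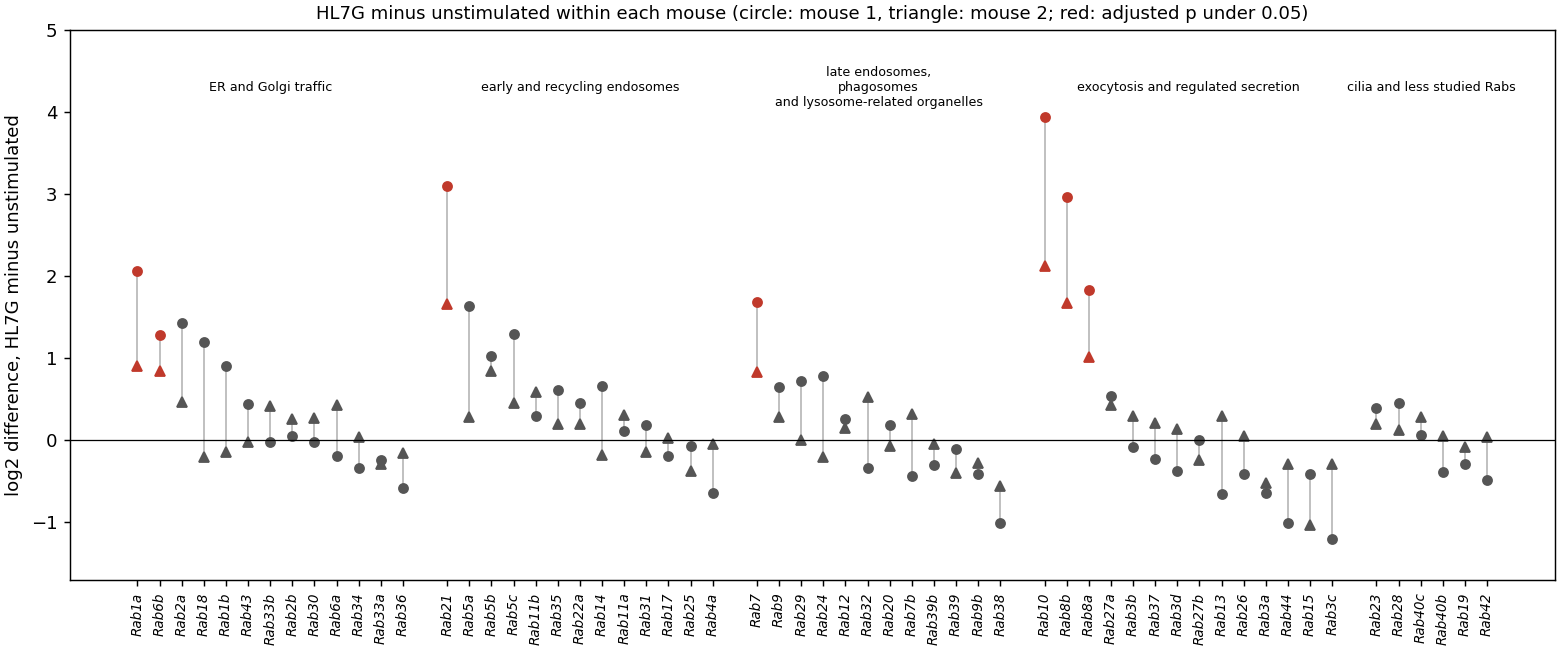
HL7G minus unstimulated (log2, vertical axis) within mouse 1 (circles) and mouse 2 (triangles) for all 58 Rab genes, ordered by role; red marks the 7 Rabs with a limma adjusted p under 0.05. The circle lies above the triangle for all 7 red genes, from 3.95 against 2.13 for Rab10 to 1.28 against 0.85 for Rab6b.

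Across the 58 Rabs, 23 were above 0 in both mice, 13 were below 0 in both and 22 had opposite signs. The size of the difference was larger in mouse 1 than in mouse 2 for 44 of the 58 Rabs, and for all 7 called ones. In mouse 1, 12 Rabs were at least 2-fold higher and 3 at least 2-fold lower, against 4 and 1 in mouse 2, and 4 Rabs were at least 2-fold higher in both. These counts by mouse were not made over all genes, so they are not read as particular to the Rabs. Larger differences in mouse 1 than in mouse 2 were also seen for Actb (4.32, 1.49), B2m (4.52, 2.01), Eef1a1 (4.18, 0.91) and Gapdh (-1.38, -0.68). The mean difference was above 0 in 35 of the 58 Rabs, while 38.6% of all 22180 genes lay above 0. The median was 0.14 over all 58 Rabs and -0.12 over all genes, and 0.25 over the 34 tested Rabs against 0.06 over all genes tested.

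Both HL7G arrays lay above both unstimulated arrays in 22 of 58 Rabs, 37.9%, against 25.6% of all genes. All 5 stimulated arrays lay above both unstimulated ones in 16 Rabs, 27.6%, against 15.5% of all genes. Those 16 were the 7 called Rabs and Rab2a, Rab5a, Rab5b, Rab9, Rab11a, Rab11b, Rab12, Rab27a and Rab40c. The 27 Rabs that were tested and not called had limma adjusted p of 0.0655 to 0.941. The 24 untested Rabs had highest levels of 3.69 to 4.98, and with no filter on level their smallest adjusted p by limma was 0.0972.

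**Figure D3:**
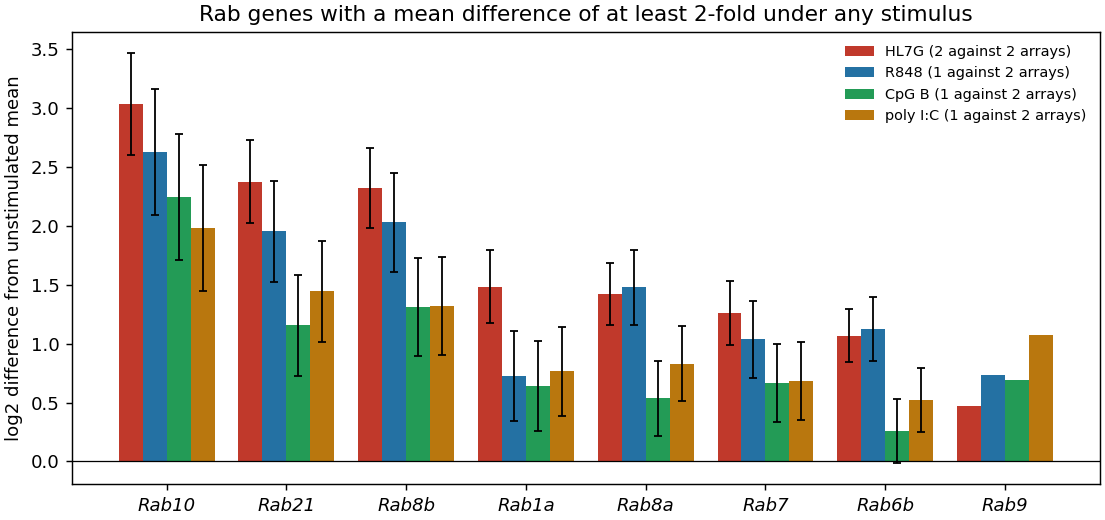
Log2 difference from the mean of both unstimulated arrays (vertical axis) for Rab genes with a mean difference of at least 2-fold under any stimulus; bars start at 0, error bars are standard errors of the limma fit, and Rab9 has none because it was not tested. The HL7G bar is the tallest of the 4 for each of the 7 called Rabs except Rab8a and Rab6b, in which R848 reached 1.48 and 1.12.

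The agonists, each on 1 array of mouse 1, gave no call. In each of the comparisons of R848, CpG B and poly I:C with unstimulated cells, of HL7G with the mean of the agonists, of R848 and CpG B with poly I:C, and of R848 with CpG B, limma called 0% of genes higher and 0% lower, so the Rab counts of 0 match the background. At an unadjusted p under 0.05, limma gave 2550 of the 11119 genes tested for R848 against unstimulated cells, 1370 for CpG B and 1054 for poly I:C. Among them were 10, 6 and 4 of the 34 Rabs tested, and these counts are not corrected for the number of genes. For HL7G against the agonists limma gave 1202 genes with 3 Rabs, for R848 and CpG B against poly I:C 187 genes with 0 Rabs, and for R848 against CpG B 329 genes with 2 Rabs. The agonists and HL7G are set against the same unstimulated arrays, so their differences are not independent.

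With R848, 6 Rabs were at least 2-fold above the unstimulated mean and none was 2-fold below, against 6.22% and 1.48% of all genes. The largest were Rab10 at 2.63 ± 0.53 (limma adjusted p = 0.0861), Rab8b at 2.03 ± 0.42 (0.0871), Rab21 at 1.95 ± 0.43 (0.0912) and Rab8a at 1.48 ± 0.32 (0.0897). At the other end were Rab44 at -0.80, Rab36 at -0.65, and Rab26 and Rab17 at -0.40. Leaving out either HL7G array does not alter the R848 differences, and their errors then rest on the unstimulated pair of arrays alone.

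With CpG B, 3 Rabs were at least 2-fold higher and none lower, against 4.1% and 0.509% of all genes. Rab10 differed by 2.25 ± 0.53 (limma adjusted p = 0.236), Rab8b by 1.31, Rab21 by 1.15 and Rab9 by 0.69. Lowest were Rab3c at -0.85, Rab38 at -0.74, Rab19 at -0.70 and Rab36 at -0.46. With poly I:C, 4 Rabs were at least 2-fold higher and none lower, against 3.15% and 0.153% of all genes. These were Rab10 at 1.98 ± 0.53 (limma adjusted p = 0.433), Rab21 at 1.44, Rab8b at 1.32 and Rab9 at 1.07. Lowest were Rab3c at -0.63, Rab30 at -0.40, Rab36 at -0.34 and Rab9b at -0.34. Without the HL7G array of mouse 1, or without that of mouse 2, 2 Rabs were called higher with CpG B and 1 with poly I:C, against 4.51% and 1.77% of all genes tested.

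Rab10, Rab21 and Rab8b were thus among the highest 4 under each stimulus. HL7G stood above the agonist mean for them, by 0.75 ± 0.40 for Rab10, 0.86 ± 0.32 for Rab21 and 0.77 ± 0.31 for Rab8b, and by 0.77 ± 0.28 for Rab1a. None of these differences was called, with limma adjusted p of 0.418 to 0.554. The lowest were Rab3a at -0.67, Rab15 at -0.57, and Rab38 and Rab4a at -0.44. No Rab's mean differed by 2-fold, against 0.6% of all genes at least 2-fold higher with HL7G and 0.018% at least 2-fold lower. The HL7G mean holds both mice, whereas all agonist arrays are of mouse 1. The HL7G array of mouse 1 lay at least 2-fold above the agonist mean for 5 Rabs, against 2.65% of all genes, and at least 2-fold below it for none, against 0.167%. These were Rab5a by 1.45, Rab10 by 1.43, Rab21 by 1.32, Rab8b by 1.24 and Rab1a by 1.17. The HL7G array of mouse 2 lay within 2-fold of that mean for every Rab, with 0.568% of all genes at least 2-fold higher and 0.23% lower, and it differed by -0.14 for Rab5a and 0.07 for Rab10. The values of mouse 2 set its HL7G array against agonist arrays of mouse 1, so they mix animal and stimulus. With 1 HL7G array each, none of these values has a test.

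Between the agonists, the TLR7 and TLR9 agonists against poly I:C gave the highest differences for Rab30 at 0.63, Rab18 at 0.49, Rab3a at 0.48 and Rab10 at 0.46. The lowest were Rab17 at -0.52, Rab1b at -0.43, Rab9 at -0.36 and Rab44 at -0.32. R848 minus CpG B was highest for Rab8a at 0.94 ± 0.37, Rab6b at 0.87 ± 0.32, Rab5c at 0.81 and Rab21 at 0.80. It was lowest for Rab4a at -0.71, Rab44 at -0.51, Rab43 at -0.42 and Rab33a at -0.37. No Rab was called in either comparison, and 1 array per agonist limits what they can show.

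**Figure D4:**
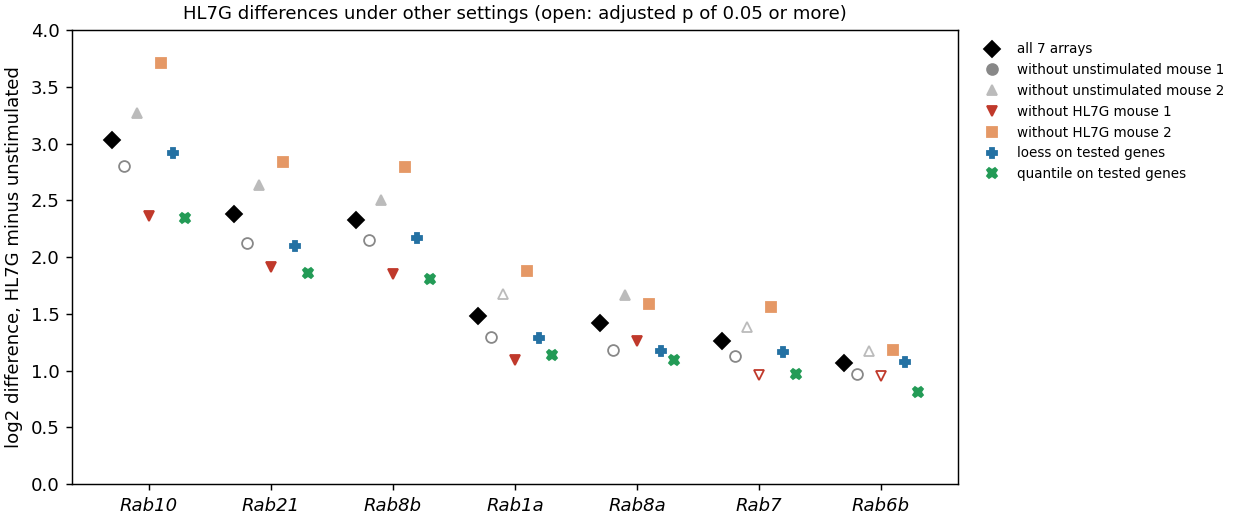
HL7G minus unstimulated (log2, vertical axis) of the 7 called Rabs with all 7 arrays, with each unstimulated or HL7G array left out, and with loess or quantile normalization of the tested genes; open symbols have a limma adjusted p of 0.05 or more. Every value lies above 0, and all 7 symbols are open without the unstimulated array of mouse 1.

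The genes that act on or with Rabs were taken from 5 lists, with 118 genes on the array and 85 tested. Of these, 23 rose with HL7G, 27.1% of those tested against the 16.3% of all genes, and 0 fell against 1.89%. Some, such as Gdi2 and Rabep1, reached a level of 5 on stimulated arrays only, so the tested genes are not a neutral sample. With no filter on level, 8.32% of all genes were called higher. The lists then had 3 of 8 prenylation and recycling genes, 5 of 30 GEFs, 6 of 34 GAPs, 4 of 29 effectors and 6 of 17 tethers called higher. No list was tested as a set against these shares. None of the 23 calls was kept without the unstimulated array of mouse 1. Without that of mouse 2, 7 were kept, without the HL7G array of mouse 1, 11, without that of mouse 2, 22, and with the mouse as a block, 14. Median centring kept 13, loess 18 and quantile normalization 14, and 2 of the 5 with a mean level of at least 6 were kept when such genes alone were tested. None of the 23 changed sign.

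Prenylation and recycling genes supply the lipid anchor and return Rabs to membranes, and 2 of 5 tested rose, where 16.3% of all genes tested rose. Gdi2, the widely expressed GDI, was at 4.01 and 4.29 unstimulated, at 6.86 and 5.96 with HL7G, and at 5.85, 5.17 and 4.89 with R848, CpG B and poly I:C. All stimulated arrays were above both unstimulated ones, and the HL7G difference was 2.26 ± 0.33 (limma adjusted p = 0.0120). Rabggtb, a subunit of the enzyme that attaches the lipid anchor to Rabs, was at 2.42 and 6.40 unstimulated. It was at 8.81 and 9.22 with HL7G and at 8.38, 8.28 and 8.14 with the agonists. The unstimulated arrays of the 2 mice were far apart, and the difference was 4.60 ± 1.09 (limma adjusted p = 0.0309), or 2.61 without the unstimulated array of mouse 1 (limma adjusted p = 0.0879). When testing was restricted to genes whose levels averaged 6 or more, its limma adjusted p was 0.0503. The Rabggtb gene also hosts small nucleolar RNAs, and the labels and tables do not say where its probes lie. Its partner subunit Rabggta (0.46 ± 0.21; limma adjusted p = 0.157) and the Rab receptor gene Rabac1 (0.48 ± 0.23; limma adjusted p = 0.177) were not called. Chm, which presents Rabs to that enzyme, differed by 0.74 below a level of 5 and was not tested. Ggps1 of the same list, also below that level, differed by 0.96 and was called with no filter on level (limma adjusted p = 0.0416).

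Of all genes tested, 16.3% rose with HL7G, and their median difference was 0.06. Of 21 tested GEF genes, 5 rose, with a median of 0.70 over those tested. Dennd4a, of the DENN family that includes GEFs for Rab10, was at 5.33 and 5.59 unstimulated and at 8.10 and 7.02 with HL7G, and it reached 7.19, 7.56 and 6.55 with the agonists. The stimulated arrays lay well above the unstimulated ones, with an HL7G difference of 2.10 ± 0.36 (limma adjusted p = 0.0149). Rabgef1, a GEF of Rab5 proteins, rose by 1.16 ± 0.23 (adjusted p = 0.0203) and Rab3ip, the GEF of Rab8 proteins also called Rabin8, by 0.98 ± 0.23 (adjusted p = 0.0289), both by limma. Dennd5a differed by 1.55 ± 0.47 and was not called (limma adjusted p = 0.0609). Of 22 tested GAP genes, 6 rose, with a median of 0.66. Tbc1d15, a GAP of Rab7, rose by 1.39 ± 0.25 (limma adjusted p = 0.0167), and Tbc1d10c by 1.23 ± 0.24 (limma adjusted p = 0.0195). Tbc1d1, a GAP of Rab10 and its relatives, differed by 1.04 ± 0.30 and was not called (limma adjusted p = 0.0535). Rabgap1 rose by 0.95 ± 0.23 (limma adjusted p = 0.0335, and 0.0530 with the mouse as a block). GEF and GAP genes, which act in opposite directions on a Rab, thus both had called members.

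Of 22 tested effector genes, 4 rose, a share near the 16.3% of all genes tested. Rilpl2, of a family that binds Rab8 and Rab10, was at 4.69 and 5.10 unstimulated, at 6.89 and 6.60 with HL7G, and at 6.48, 5.91 and 5.99 with the agonists. Its difference was 1.85 ± 0.25 (limma adjusted p = 0.0120). Rabep1, which binds active Rab5 together with Rabgef1, was at 3.65 and 4.42 unstimulated and at 5.63 and 5.57 with HL7G (1.57 ± 0.29; limma adjusted p = 0.0178). Appl1, another Rab5 effector, rose by 1.10 ± 0.27 (limma adjusted p = 0.0347). Fyco1, a Rab7 effector of vesicle movement along microtubules, rose by 0.91 ± 0.22 (limma adjusted p = 0.0346, and 0.0606 with the mouse as a block). Of 15 tested tether genes, 6 rose, 3 of them of the exocyst, which tethers outgoing vesicles, and 3 of the Vps complexes that tether endosomes and lysosomes. Exoc6, an exocyst subunit, rose by 1.38 ± 0.27 (limma adjusted p = 0.0191). Vps41 rose by 1.29 ± 0.31 (limma adjusted p = 0.0319), Vps16 by 1.18 ± 0.22 (limma adjusted p = 0.0175) and Vps33b by 1.10 ± 0.22 (limma adjusted p = 0.0210). These lists were drawn up with earlier results of these data known, and their counts describe these arrays.

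**Figure D5:**
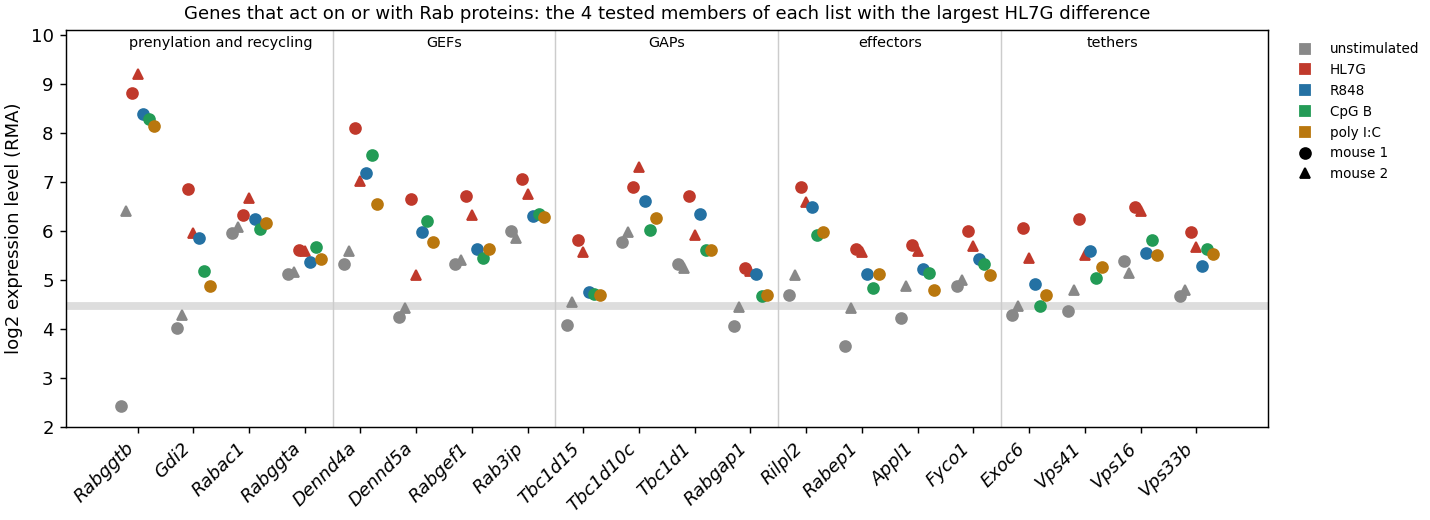
RMA log2 level (vertical axis) on each array of the 4 tested genes per list with the largest HL7G difference, for genes of Rab prenylation and recycling, GEFs, GAPs, effectors and tethers, coloured by condition, with circles for mouse 1 and triangles for mouse 2; the grey band spans the array medians of 4.40 to 4.54. Rabggtb has the widest spread between the unstimulated arrays, 2.42 against 6.40.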

How the data were processed

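The authors deposited log2 values for each probe set on each array. The submitters' processing notes list RMA (background correction, quantile normalization and probe summary), Transcriptome Analysis Console and Affymetrix Expression Console without versions. Of 41345 probe sets, 23521 had a single gene symbol in GEO's platform annotation, 1814 had several and 16010 had none. RefSeq names (GRCm38.p6) were found for 23328 and changed 0 symbols. Probe sets with several symbols were left out. Limma 3.58.1 in R 4.3.3 fitted all 7 arrays in 5 groups, with 2 residual and 4.94 prior degrees of freedom, 2-sided tests and Benjamini-Hochberg adjustment over 11119 genes. The script was tested on simulated data. A lone agonist array is taken to vary as the replicated groups do, and errors are standard errors of this fit. Precision is limited by the number of arrays.

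The Rab list, the role and pathway lists, the motifs and the tests were chosen with earlier results of these data known. Named by rule were all called Rabs, the 2 largest differences in each role, the 4 largest each way in the other comparisons, a fixed set of well-studied Rabs and up to 4 genes per pathway list; others named were chosen after their values were seen. The mouse number marks the same animal and so pairs the samples; across genes, mouse 2 minus mouse 1 differences of unstimulated and HL7G arrays correlated at -0.146. Alternatives were the mouse as a block, the level filter, probe set averaging, normalization, a variance trend, and each array left out. Setting the HL7G array of each mouse apart against the agonists was chosen after seeing the data.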

Additional observations from a re-analysis of the deposited data

Results flagged for a closer look

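Probe sets listed for several genes were not used in the comparisons, and 3 of them name a Rab. One listed for Rab4b and Mia was at 4.68 and 4.65 on the unstimulated arrays and at 5.79 and 5.65 with HL7G, a log2 difference of 1.05, above the level in the unstimulated samples. Its levels with R848, CpG B and poly I:C were 5.08, 4.93 and 5.23. Another, listed for Mir3101, Rab4b and Mia, was at 2.18 and 2.38 unstimulated and at 3.89 and 4.03 with HL7G, a difference of 1.68, and at 3.00, 2.38 and 2.38 with the agonists. Rab4b is a Rab of early and recycling endosomes, but these values cannot be assigned to it alone. The third, listed for Rab3b and 8030443G20Rik, differed by -0.32.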

How the results depend on the processing

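The 7 Rab calls with HL7G were all kept with the mouse as a replicate block (8 called, adding Rab5b), with no filter on level, under median centring, loess, quantile normalization and a variance trend, which added Rab2a (limma adjusted p = 0.0383). Averaging probe sets lost Rab6b. The block called 1698 genes higher and 148 lower, against 1814 and 210 without it, and beside Rab5b and the pathway genes given above it changed no Rab call. Leaving out 1 array gave 0 to 11 Rabs called higher: 0 of 2 genes without the unstimulated array of mouse 1, 4 of 817 without that of mouse 2, 5 of 1223 without the HL7G array of mouse 1 and 11 of 2779 without that of mouse 2. It gave 0 to 3 called lower. With a mean level of at least 6, 1 Rab (Rab3c) was tested and 0 were called. Loess called 1 Rab lower among 625 genes and quantile normalization 3 among 1027. For R848, quantile normalization called 4 Rabs higher among 344 genes and a variance trend 2 among 68. With 1 array left out, the errors of the agonist comparisons rest on a single pair of arrays, so calls in those fits are not relied on. Counts of such calls are given above for CpG B and poly I:C only, with an HL7G array left out. The median of the tested Rabs, 0.25, was 0.14 with no filter, -0.74 for the 1 Rab of mean level 6, 0.12 under median centring, 0.092 under quantile normalization and 0.19 to 0.36 with 1 array left out. Over all genes tested, the median moved from 0.06 to -0.07, -0.08 and -0.12 under centring, loess and quantile normalization, and higher calls were 89.6%, 78.4%, 68.7% and 57.6% of all calls in the main fit and those settings. Rab20, Rab31 and Rab32, which were not called, changed sign under some of them. The cause was not tested.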
